A study of Arabidopsis thaliana with 4 samples.

Results

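Class II homeodomain-leucine zipper (HD-Zip II) genes encode plant transcription factors that bind DNA through a homeodomain and pair through an adjoining leucine zipper. The 9 genes described here were chosen by locus from the 27416 gene models of Arabidopsis thaliana that the tables list, and all 9 were found. They are ATHB2, HAT1, HAT2, HAT3, ATHB4, HAT9, HAT14, HAT22 and ATHB17. For each of them the RefSeq annotation gives the same locus with that symbol or synonym. These 9 and the other listed genes were chosen with earlier results of these data known. Shares within the lists are therefore descriptions, not tests.

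The samples were Col-0 wild-type seedlings, 2 labelled dark and 2 labelled with red light at 60 µmol/m2/s. All seeds spent 4 days at 4 °C on diluted MS medium holding 1% sucrose, followed by 12 h of white light and 4 days of the dark or red-light regime. The stated age was 4.5 days. The dark seedlings had therefore also seen white light. Poly(A) RNA was sequenced, and each condition came as 1 column of reads and 1 of RPKM, which is reads divided by gene model length and by column depth. No value had a replicate error, so no difference has a replicate check and no p-value is given. The dark column summed to 41106535 reads and that of red light to 33521717. Brackets give exact 95% intervals that cover counting error only. A fold value is a ratio of RPKM, and a log2 change is that of RPKM + 1, which understates the change of low genes. A gene was called lower or higher at a 2-fold difference on RPKM + 1 where its higher value reached 10 RPKM.

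HD-Zip II proteins are known mainly as repressors of transcription, and several act on their own promoters and on those of their relatives. Phytochromes, the red and far-red photoreceptors, are switched on by red light and then trigger the breakdown of PIF proteins, bHLH factors that promote growth in darkness and shade. Under leaf shade, poor in red light, phytochrome B is partly inactive and PIF proteins switch on a set of genes of which ATHB2 is a classic example. The literature places 5 of the 9 genes among those induced by shade, namely ATHB2, HAT1, HAT2, HAT3 and ATHB4. The other 4, HAT9, HAT14, HAT22 and ATHB17, are not in that group.

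In red light 3 of the 9 genes (33.3%) fell, none rose and 6 were not called. Over all 27416 gene models 2.47% were called lower and 4% higher, and over the 12625 that reached 10 RPKM in either condition the shares were 5.35% and 8.69%. Of the 9 genes, 6 reached 10 RPKM, so the count to set beside these last shares is 3 of 6. At 4-fold, 1 of the 9 genes, ATHB2, was lower, against 0.452% of all gene models. All 3 genes that fell, ATHB2, HAT2 and HAT3, belong to the shade-induced group of 5. The remaining 2 of that group, HAT1 and ATHB4, also had lower values in red light, HAT1 by less than 2-fold and ATHB4 from a level below the 10 RPKM minimum. Of the 4 other genes, HAT9 and ATHB17 had values above and HAT22 below that of darkness, none past the threshold, and HAT14 hardly differed. The median log2 change was -1.61 in the shade-induced group, 0.17 in the other 4 and -0.67 in all 9, against -0.11 over those 12625 gene models and 0.00 over all gene models. Of the 12625 gene models, 58.8% had a log2 change below 0, as had 7 of the 9 genes. Unlike the 12625, these 7 include ATHB4 and HAT14, which did not reach 10 RPKM. The seventh, HAT14, lay at -0.00, and at 0.06 with TMM factors. In whole seedlings, fewer cells of a type and less RNA per cell cannot be told apart.

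**Figure D1:**
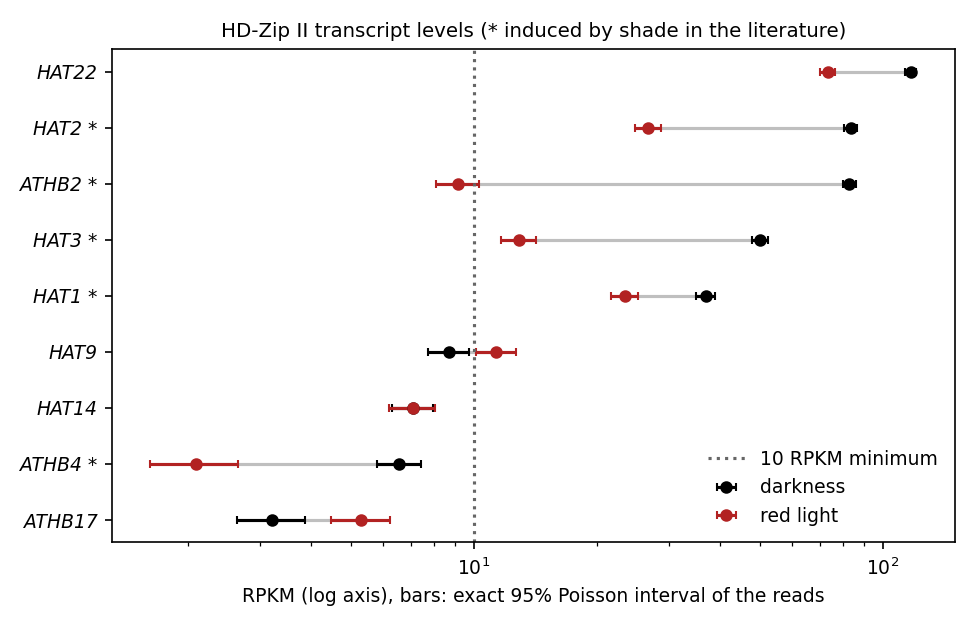
Level of each of the 9 genes in darkness (black) and red light (red) in RPKM on a log axis, 1 value per condition, with bars for the exact 95% Poisson interval of the reads, and a dotted line at the 10 RPKM minimum. ATHB2 moves from 82.6 to 9.14 RPKM, the widest gap on this axis, whereas the HAT14 points at 7.10 and 7.08 RPKM overlap.

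Among the shade-induced genes, ATHB2 (also known as HAT4), which promotes hypocotyl elongation under shade, stood at 82.6 RPKM (2904 reads) in darkness and, in red light, at 9.14 RPKM (262 reads). It fell 9.04-fold (7.96 to 10.3), a log2 change of -3.04. Of the 12625 gene models with at least 10 RPKM, 37 had a lower log2 change. ATHB2 reached 10 RPKM in darkness alone. By level it stood above 91.4% of all gene models in darkness and above 55.5% in red light.

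HAT3, which acts with ATHB4 and ATHB2 in setting the upper side of leaves and cotyledons, fell 3.90-fold (3.50 to 4.34), from 50.1 RPKM (1954 reads) to 12.9 RPKM (409 reads). HAT2, first described as an early auxin-inducible gene, fell 3.13-fold (2.89 to 3.39), from 83.4 RPKM (2921 reads) to 26.6 RPKM (761 reads). Their log2 changes were -1.88 and -1.61. ATHB2 and HAT2 thus started from almost the same level in darkness, and in red light HAT2 kept the higher one.

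ATHB4, the closest relative of HAT3, had 6.56 RPKM (258 reads) in darkness and, in red light, 2.09 RPKM (67 reads), a dark-to-red ratio of 3.14 (2.39 to 4.17). Its log2 change was -1.29, and only the 10 RPKM minimum kept it from being called. HAT1, a factor linked to brassinosteroid and abscisic acid responses, was at 36.9 RPKM (1287 reads) and 23.4 RPKM (666 reads), a log2 change of -0.63. Its dark-to-red ratio was 1.58 (1.43 to 1.73), so the whole counting interval lay below 2-fold.

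Among the 4 genes outside the shade-induced group, HAT22, a gene responsive to abscisic acid, had the highest level of the family in both conditions. Its level was 117 RPKM (4026 reads) in darkness and, in red light, 73.2 RPKM (2055 reads), a dark-to-red ratio of 1.60 (1.51 to 1.69) and a log2 change of -0.67. HAT9, its closest relative, was at 8.70 RPKM (295 reads) and 11.3 RPKM (313 reads), a red-to-dark ratio of 1.30 (1.11 to 1.53). The values of these close relatives therefore moved in opposite directions, neither past the threshold.

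HAT14 had practically the same level in both conditions, 7.10 RPKM (295 reads) and 7.08 RPKM (240 reads), with a red-to-dark ratio of 0.998 (0.838 to 1.19). ATHB17, linked to abscisic acid and stress responses, was at 3.20 RPKM (109 reads) and 5.30 RPKM (147 reads), a red-to-dark ratio of 1.65 (1.28 to 2.14). In all, 6 of the 9 genes reached 10 RPKM in some condition. ATHB2 did so through darkness alone and HAT9 through red light alone, and ATHB4, HAT14 and ATHB17 did not reach it. ATHB18, the tenth HD-Zip II gene and not among the 9, had 14 reads (0.548 RPKM) in darkness against 44 reads (2.11 RPKM) in red light, a red-to-dark ratio of 3.85 (2.07 to 7.62). Its log2 change was 1.01 (0.58 to 1.37), and only the 10 RPKM minimum kept ATHB18 from a higher call.

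The order of the levels, compared per coding length, changed between the conditions. In darkness it ran HAT22, HAT2, ATHB2, HAT3, HAT1, HAT9, HAT14, ATHB4, ATHB17. There the counting intervals of HAT2 and ATHB2 overlapped, as did those of HAT9 and HAT14 and of HAT14 and ATHB4. In red light it ran HAT22, HAT2, HAT1, HAT3, HAT9, ATHB2, HAT14, ATHB17, ATHB4. There HAT2 and HAT1 overlapped, as did HAT3 and HAT9, HAT9 and ATHB2, and HAT14 and ATHB17. ATHB2 went from the third place to the sixth, and HAT1 from the fifth to the third.

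The summed RPKM of the 9 genes was 396 in darkness and 171 in red light, a red-to-dark ratio of 0.432. The 5 shade-induced genes made up 65.6% of the sum in darkness and 43.3% in red light. The share of ATHB2 was 20.9% in darkness and 5.34% in red light, and that of HAT3 12.7% and 7.52%. HAT22 made up 29.6% and 42.8%, HAT1 9.32% and 13.7%, HAT2 21.1% and 15.6%, and HAT9 2.20% and 6.62%. HAT22 alone was therefore the largest single part of the pool in both conditions, and its share was higher in red light although its own level was lower.

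**Figure D2:**
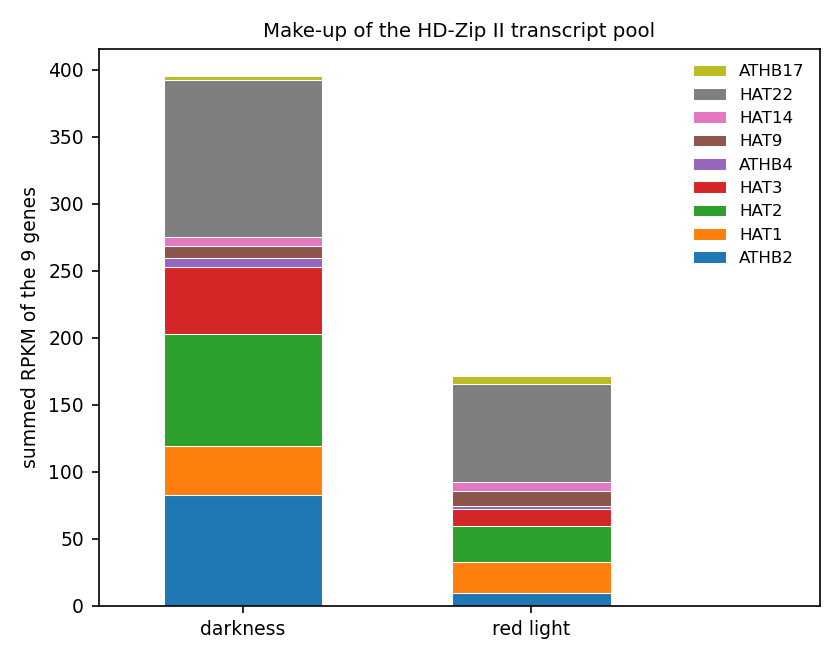
Stacked bars of RPKM, starting at 0, for the 9 genes in darkness and in red light, with 1 value per gene and condition and no replicate error. The total goes from 396 to 171 RPKM, and the ATHB2 part at the bottom shrinks from 82.6 to 9.14 RPKM while the HAT22 part goes from 117 to 73.2 RPKM.

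Counting error did not separate all ratios within the family. Of the 36 pairs of genes, 5 had overlapping intervals of the red-to-dark ratio. These pairs were HAT2 with ATHB4, HAT3 with ATHB4, HAT1 with HAT22, HAT9 with HAT14, and HAT9 with ATHB17. ATHB2, at a red-to-dark ratio of 0.111 (0.0971 to 0.126), overlapped none of the other 8. These intervals hold no variation between seedling batches, so the order of HAT2 (0.319) and HAT3 (0.257) has no replicate check.

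The genes were set beside the likeness of their proteins, computed from the coding sequences of the TAIR10.1 reference over aligned residues. HAT1 and HAT2 were 81.7% identical, HAT9 and HAT22 78.7%, and HAT3 and ATHB4 73.0%. ATHB2 was nearest to HAT2, at 67.2%. Within the HAT3 and ATHB4 pair the dark-to-red ratios were 3.90 and 3.14, with overlapping intervals. Within the HAT1 and HAT2 pair, the most alike of all, they were 1.58 and 3.13 and did not overlap. HAT9 and HAT22 had a value above and one below that of darkness. At most 0.977% of the 31-base words of any member's coding sequence occurred in another gene.

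In the TAIR10.1 assembly ATHB2 (AT4G16780) spans 9449114 to 9450905 of chromosome 4, plus strand, with 4 exons and a coding length of 855 bases. HAT1 (AT4G17460) lies on the same chromosome from 9739518 to 9741234, and HAT22 (AT4G37790) from 17768042 to 17769676, both on the plus strand. HAT2 (AT5G47370) is on chromosome 5 from 19216271 to 19218007 and HAT14 (AT5G06710) from 2067941 to 2070566, both on the minus strand. HAT3 (AT3G60390) is on chromosome 3 from 22320580 to 22322661, minus strand. On chromosome 2, minus strand, ATHB4 (AT2G44910) runs from 18517656 to 18519731, HAT9 (AT2G22800) from 9704632 to 9706217 and ATHB17 (AT2G01430) from 187608 to 190369. HAT9 and HAT22 have 3 exons and the other 7 have 4. For all 9 the reference coding length was the one that reads and RPKM imply, and no other annotated gene overlapped their coding sequence.

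Promoters were searched on both strands for letters tied to light signalling and to HD-Zip proteins. These were the G-box CACGTG and the PBE (PIF-binding E-box) CATGTG, both bound by PIF proteins, and CAATNATTG, the form of site that HD-Zip I and II proteins bind. Class II proteins are known to prefer C or G at the middle base of that site. In the 9 genes no match of one motif overlapped a match of another. From 250 bases before the gene start to 50 after it, a G-box stood in 2 of the 9 genes, against 7.68% of 27443 promoters. Those 2, HAT14 and ATHB17, were not among the genes that fell. The PBE stood in 1 of the 9, HAT2, against 12.9% of all promoters, and the HD-Zip site in none, against 1.07%. Over 1000 bases before the start, a window added after the first was seen, the PBE stood in 4 of the 9 (HAT1, HAT2, HAT3 and HAT22), against 37.7% of promoters. The G-box stood in the same 2 there, against 14.8%, and the HD-Zip site in 2, ATHB2 and HAT1, against 3.44%. No motif was shared by the 3 genes that fell, which says only that these letters are not in these windows.

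**Figure D3:**
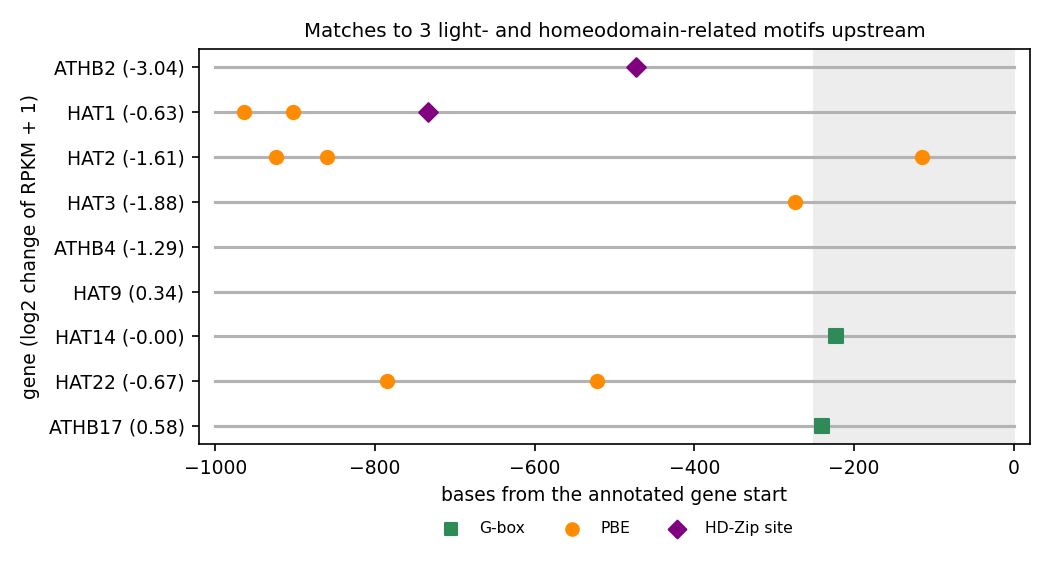
Matches to the G-box (green squares), the PBE (orange circles) and the HD-Zip site (purple diamonds) in the 1000 bases before the annotated start of each gene, with the log2 change of RPKM + 1 beside its name and the last 250 bases shaded. HAT2 carries 3 matches to the PBE, and the 2 G-boxes are those of HAT14 and ATHB17.

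The matches below are those nearest to the start in the genes that fell, with the HD-Zip sites of ATHB2 and HAT1 and the G-boxes of HAT14 and ATHB17 for comparison. Each is written 5′ to 3′ in the direction of the gene, with the match in capitals and 20 bases on either side. In this order the windows are chr4:9448617-9448665 (plus), chr4:9738760-9738808 (plus), chr5:19218100-19218145 (minus), chr3:22322913-22322958 (minus), chr5:2070766-2070811 (minus) and chr2:190587-190632 (minus) of TAIR10.1. The ATHB2 site starts at base -477 before the gene, that of HAT1 at -738, the PBE of HAT2 at -118 and that of HAT3 at -277. The middle base of the ATHB2 site is A, not the C or G that class II proteins prefer, and that of HAT1 is G.
ATHB2 HD-Zip site: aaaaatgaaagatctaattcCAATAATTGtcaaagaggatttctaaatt
HAT1 HD-Zip site: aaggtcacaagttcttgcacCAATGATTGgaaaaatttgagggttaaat
HAT2 PBE: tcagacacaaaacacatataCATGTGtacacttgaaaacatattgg
HAT3 PBE: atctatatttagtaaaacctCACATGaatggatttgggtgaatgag
HAT14 G-box: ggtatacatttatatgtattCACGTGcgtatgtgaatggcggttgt
ATHB17 G-box: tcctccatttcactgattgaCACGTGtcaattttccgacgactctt

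In the other HD-Zip classes 2 genes were called, both of class I. Of 17 class I genes, 11 reached 10 RPKM, 2 (11.8%) fell and none rose, with a median log2 change of -0.26. Over all 27416 gene models 2.47% were called lower and 4% higher. ATHB52, a class I gene known from ethylene and auxin crosstalk in the root, fell 17.1-fold (15.0 to 19.5), from 269.7 to 15.8 RPKM, further than ATHB2. ATHB3, the other class I gene that was called, fell 2.27-fold (2.04 to 2.52), from 35.6 to 15.7 RPKM.

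None of the 5 class III genes was called, with a median of 0.08 and log2 changes from -0.02 to 0.55. These genes set the upper side of leaves, and REV, which directly activates HAT3, ATHB4 and ATHB2 in the literature, had 17.6 RPKM in darkness against 18.6 RPKM in red light. None of the 16 class IV genes, which act in the epidermis, was called (median 0.04, from -0.34 to 1.02), and 11 of them stayed below 10 RPKM in both conditions. HDG11, named after its value was seen, had the highest of these changes, from 47 reads (0.527 RPKM) to 153 reads (2.10 RPKM), a red-to-dark ratio of 3.99 (2.86 to 5.66). Only the 10 RPKM minimum kept it from a higher call. Together classes I, III and IV had 2 calls in 38 genes (5.26%), both lower, against 2.47% of all gene models. Of the 38, 21 reached 10 RPKM, and 5.35% of all gene models that did so were called lower. The difference between the classes was not tested.

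**Figure D4:**
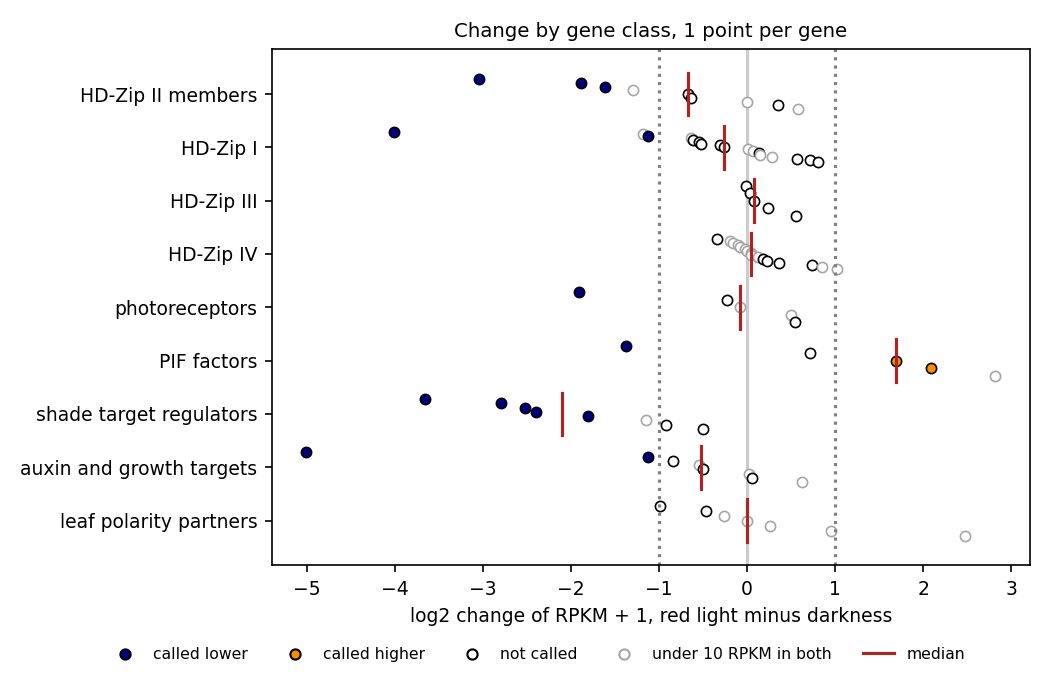
Log2 change of RPKM + 1, red light minus darkness, with 1 point per gene, filled blue where called lower and orange where called higher, grey-edged where below 10 RPKM in both conditions, and a red line at each median. Class III points span -0.02 to 0.55 and class IV points -0.34 to 1.02, whereas ATHB2 at -3.04 and the shade target regulators, with a median of -2.11, lie to the left.

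Other genes of the shade pathway, namely photoreceptors, PIF factors, target regulators and auxin and growth targets, moved in both directions. Of 26 genes, 9 (34.6%) fell, 2 (7.69%) rose and 15 were not called. Over all gene models the shares were 2.47% lower and 4% higher. Of the 26, 19 reached 10 RPKM, and over all gene models that did so the shares were 5.35% and 8.69%. Of the 5 phytochrome genes, PHYA alone was called and fell 3.77-fold, from 601 to 159 RPKM. Of the 5 PIF genes, PIF4 rose 4.49-fold (4.13 to 4.88) to 61.1 RPKM and PIF5 rose 3.33-fold (3.11 to 3.57) to 67.3 RPKM, whereas PIF3 fell 2.70-fold from 46.9 to 17.4 RPKM. PIF7, named after its value was seen, had 18 reads in darkness against 327 in red light and stayed below the minimum at 8.86 RPKM. PIF protein was not measured.

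Of 8 further regulators, listed as shade and PIF targets, 5 (62.5%) fell, against 2.47% of all gene models, and none rose. Of the 8, 7 reached 10 RPKM, and 5.35% of all gene models that did so were called lower. The list was chosen with earlier results of these data known, so these shares describe it and test nothing. All 8 had lower values in red light (median log2 change -2.11). PIL1, a PIF-like factor, fell 18.5-fold (14.8 to 23.4) from 36.2 RPKM, and FHY1, a nuclear import partner of phytochrome A, fell 7.24-fold from 161 RPKM. Whether FHY1 is itself a shade or PIF target was not tested. IAA29, an auxin-response repressor, fell 7.18-fold from 24.1 RPKM. PAR1 and IAA19, named after their values were seen, fell 5.44-fold and 3.55-fold. ATHB2, with its fall of 9.04-fold, thus lay between PIL1 and FHY1.

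Of 8 auxin synthesis, transport and wall genes, 2 (25%) were called, both lower, against 2.47% of all gene models. These were XTH15 and XTH33, enzymes that remodel xyloglucan. Of the 8, 5 reached 10 RPKM, and 5.35% of all gene models that did so were called lower. XTH15 fell 32.4-fold from 3406 RPKM, with 27.7% of its coding sequence inside the span of another gene, so its reads are uncertain. XTH33 fell 2.29-fold from 27.3 RPKM. YUC8, an auxin synthesis gene named after its value was seen, was not called, at 18.3 and 9.78 RPKM.

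Of 8 leaf polarity genes that share pathways with HAT3 and ATHB4, 7 were among the gene models. Of these, only 2 reached 10 RPKM and could be called, and none was called. ZPR2, named after its value was seen, had 0 reads in both conditions. ZPR1, a small leucine zipper protein that blocks class III factors and was named after its value was seen, had 22.7 RPKM in darkness against 11.0 RPKM in red light, a log2 change of -0.99, just inside the threshold. AS2, a regulator of the upper leaf side named after its value was seen, had 9 reads in darkness against 133 in red light, which is 6.61 RPKM. Its red-to-dark ratio was 18.1 (9.26 to 40.5), a log2 change of 2.48. Only the 10 RPKM minimum kept AS2 from a higher call.

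Genes outside the family with the nearest pair of levels were found by the distance of log2(RPKM + 1) over the 2 conditions. Nearest to ATHB2 were AT1G05835, at 72.1 and 9.79 RPKM (distance 0.214), and FLP1, at 92.5 and 10.9 RPKM (0.279). Nearest to HAT3 were AT5G24580, at 50.9 and 13.1 RPKM (0.0321), and ETFQO, at 49.4 and 14.1 RPKM (0.124). HAT2 had AT4G16442 (0.1) and AT5G07030 (0.120). ATHB4 had AT4G25707 (0.0837) and AT2G39920 (0.147), and HAT22 had AT1G19400 (0.0241) and AT3G48970 (0.0317). With 2 values per gene such a likeness is a description of these columns.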

How the data were processed

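Per the labels, 4 wild-type samples were in 2 groups of 2. Per the file headers, the authors deposited estimated counts of reads and RPKM values, with 1 column of each per condition. The aligner, the counter, the use of strand and how replicates entered a column were for this series not given in the sources used here. The submitters' processing notes name TAIR10 as build. The deposited counts held 0.5 in place of 0 (4059 genes in darkness, 4164 in red light), set back to 0 here. The deposited RPKM values used coding lengths, since the lengths implied by reads and RPKM came out whole (within 0.01 bases) and 99.99% of them divided by 3. For ATHB2, 10 RPKM meant 351 dark and 287 red-light reads.

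Ratios have exact Clopper-Pearson intervals and levels exact Poisson intervals, both at 95%. The reads carried no molecular identifiers, so intervals cover counting error only. The pseudocount was 1 RPKM. The 9 members and all 82 listed genes (81 found) were chosen with earlier results of these data known. Named were all members and ATHB18, up to 3 called genes per list and direction by size of change, 5 others whatever their value (PHYA, PIF3, PIF4, PIL1 and REV), and the 2 nearest genes to HAT22 and to each member with a log2 change of at least 1 in size. Genes outside this rule are marked in the text. Positions, promoters and proteins came from RefSeq TAIR10.1. Proteins were aligned globally with BLOSUM62 in Biopython 1.88. Calls were recomputed with TMM and upper-quartile factors (edgeR 4.0.16), DESeq2 1.42.0 size factors and other thresholds, in R 4.3.3 and Python 3.11.15.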

Additional observations from a re-analysis of the deposited data

How the results depend on the processing

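With a 4-fold threshold in place of 2-fold, 1 of the 9 genes, ATHB2, was called lower, against 0.452% of all gene models. Under TMM, DESeq2 and upper-quartile factors, a total without organelle genes, a pseudocount of 0.1, and a rule on the whole counting interval, 3 were called lower and 0 higher. With a minimum of 5 RPKM or none, ATHB4 was added, giving 4 lower. At 5 RPKM the 26 shade pathway genes had 10 lower and 3 higher calls. The share of all gene models called was not computed at these minimums, so these counts have no background to be read against. The scalings moved all 9 log2 changes by less than their counting intervals, although HAT14 went from -0.00 to 0.06 (TMM), 0.05 (DESeq2) and 0.01 (upper quartile). The median over gene models of at least 10 RPKM was -0.04 with TMM factors. The pseudocount of 0.1 did so for 8, the exception being ATHB4. No paired analysis was possible because each condition had 1 column and no replicate numbers, and for the same reason no replicate could be left out. Depth limits ATHB4, with 67 reads in red light, and ATHB17.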
